A study of Homo sapiens with 4 samples.

Results

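The genes described here build the kinetochore, run the spindle checkpoint and fold chromosomes for mitosis. The list named 44 genes by role, and 42 were measured among the 18417 genes that a single platform symbol identified. CENPA, the histone variant that marks the centromere, was represented only by a feature that also lists SLC35F6, and KNTRK matched no symbol, so neither was analysed here. Where a gene had several features, the brightest was used.

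HCE cells, a line that the labels give as undifferentiated and that was grown in Occulife medium, were transfected with 20 nM of a siRNA pool and collected 48 hours later. A pool against KLF7, a zinc finger transcription factor, was used for 2 arrays (siKLF7 replicates 1 and 2) and a non-targeting control pool for the other 2 (scramble control replicates 1 and 2, called control 1 and control 2 below). The line carries no other stated change, and the series concerns KLF factors in the corneal epithelium. Nothing in the labels says that arrays of a group stem from independent cultures, and the p-values here reflect the spread between arrays, which may be technical. In the fits against 1 control, only the spread of the siKLF7 pair and a variance prior over all genes enter.

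KLF7 itself stood at signals of 4649 and 2911 in controls 1 and 2 and at 1492 and 1122 in siKLF7 replicates 1 and 2. The groups did not overlap, and the log2 difference was -1.50 (SE 0.28, limma adjusted p = 0.639) with 4 arrays. Against a single control, KLF7 was lower by a log2 value of -1.16 for control 2 (SE 0.13, limma adjusted p = 2.02e-09) and of -1.83 for control 1 (SE 0.13, adjusted p = 2.67e-22). Control 1 stood apart from the other arrays. It correlated with them at 0.934 to 0.938 across genes, against 0.990 to 0.994 among the other 3, and 943 genes differed by 2-fold or more between it and their mean. KRT5 and KRT14, keratins of stratified epithelium, were at log2 levels of 13.04 or more in every array. The cornea-type keratin KRT3 was below the pseudocount of 16 in control 1 alone. The summed signal of 11 epithelial markers was 41902 and 43366 in controls 1 and 2 and 49430 and 51474 in the siKLF7 arrays. Single epithelial markers were further apart. KRT12, the other cornea-type keratin, had signals of 67.7 in control 1, 1570 in control 2 and 2434 and 3136 in the siKLF7 arrays. Of the 11, 7 were lower in control 1 than in control 2 and 4 were higher. The 4 were ITGA6 (6529 against 3290), ITGB4 (6033 against 3683), KRT19 (3456 against 2097) and CDH1 (3939 against 3262). KRT12, KRT15, KRT3, KRT19 and ITGA6, 5 of the 11, rose against control 2, where 0.89% of all genes did. The sum of 10 fibroblast markers was 2503 in control 1 and 1207 to 1283 in the other arrays. THY1 stood at 752 in control 1 and 111 in control 2, and POSTN at 678 and 25.4, whereas LUM and FBN1 were lowest in control 1. Against control 2, 4 of these 10 were higher in the siKLF7 mean, POSTN by a log2 value of 0.86 and LUM by 0.64, and 6 were lower. Sums over 6 endothelial, 5 leukocyte and 4 melanocyte markers were also highest in control 1. None of these markers lay below the pseudocount in any array, but the pseudocount is not a detection limit. In control 1, CDH5, CD68 and SOX10 alone made up 741, 1419 and 553 of these sums of 1480, 1965 and 739. The part of these differences in the values below was not tested. The counts over the members and the members that passed a test are therefore given against each control alone as well as with 4 arrays.

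CENPA nucleosomes carry the constitutive centromere network, the inner kinetochore, throughout the cell cycle, and in mitosis it recruits the microtubule-binding outer kinetochore. Unattached kinetochores recruit checkpoint kinases and MAD2L1, which delay anaphase, while condensin and topoisomerase II compact and untangle the chromatids. Many of these genes are transcribed mainly in G2 and mitosis, so their RNA follows the share of dividing cells. In these bulk samples, a larger share of cells in mitosis and more transcript per cell cannot be told apart.

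Against control 2, 41 of the 42 members were higher in the mean of the siKLF7 arrays, where 42.2% of all genes were. The median log2 difference of the members was 0.32, and that of all genes was -0.04. TTK, CENPF, CENPE, TOP2A and SMC4 rose, 5 of 42 members, where 0.89% of all genes passed in that direction at a limma adjusted p under 0.05. No member fell, where 0.679% of all genes did. With quantile normalization or median centring of the arrays, CENPQ, NCAPD2 and NCAPG passed as well, making 8 members, and with a prior that had no intensity trend 2 members passed, TTK and CENPF. Over all genes, 276, 277 and 98 passed upwards in these settings, against 164 before. A further 14 members were higher at an unadjusted p under 0.05 and did not pass after adjustment, which made 19 of 42 against 5.03% of all genes. Both siKLF7 arrays lay above control 2 for 37 of 42 members, against 29.7% of all genes. Taken singly, siKLF7 replicate 1 had a member median of 0.36 and replicate 2 had 0.28.

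Against control 1 the members divided. Of the 42, 23 were higher and 19 lower, where 43% and 57% of all genes were, with a median of 0.10 against -0.06 for all genes. CENPC, CENPH, CENPQ, CENPU, NDC80, SPC25 and SMC4 rose, 7 of 42 where 13.4% of all genes passed upwards. CENPI, BIRC5 and NCAPH fell, 3 of 42 where 13.4% passed downwards. Read against that background, neither count sets the members apart.

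With all 4 arrays, 33 members were higher, against 41.8% of all genes, and the median was 0.18 against -0.05. No member and no gene passed limma's adjusted p of 0.05 (0% of all genes in either direction). At an unadjusted p under 0.05, 8 members were higher, against 1.9% of all genes, and 0 members were lower, against 3.91%. Both siKLF7 arrays lay above both controls for 19 of 42 members, against 16.3% of all genes. They lay below both controls for 0 members, against 28.9% of all genes. Shares over all genes, here and elsewhere, include dim genes and were not matched to the members for brightness. For 10 members the siKLF7 arrays lay between the controls, with control 1 the higher in all 10, where 9.67% of all genes had that order. The other 13 had a siKLF7 array on either side of a control, where 6495 of all 18417 genes did. The control arrays themselves differed by a member median of 0.29, control 1 being higher for 32 of 42, against 49.2% of all genes. The 3 comparisons share the siKLF7 arrays and are set side by side only.

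**Figure D1:**
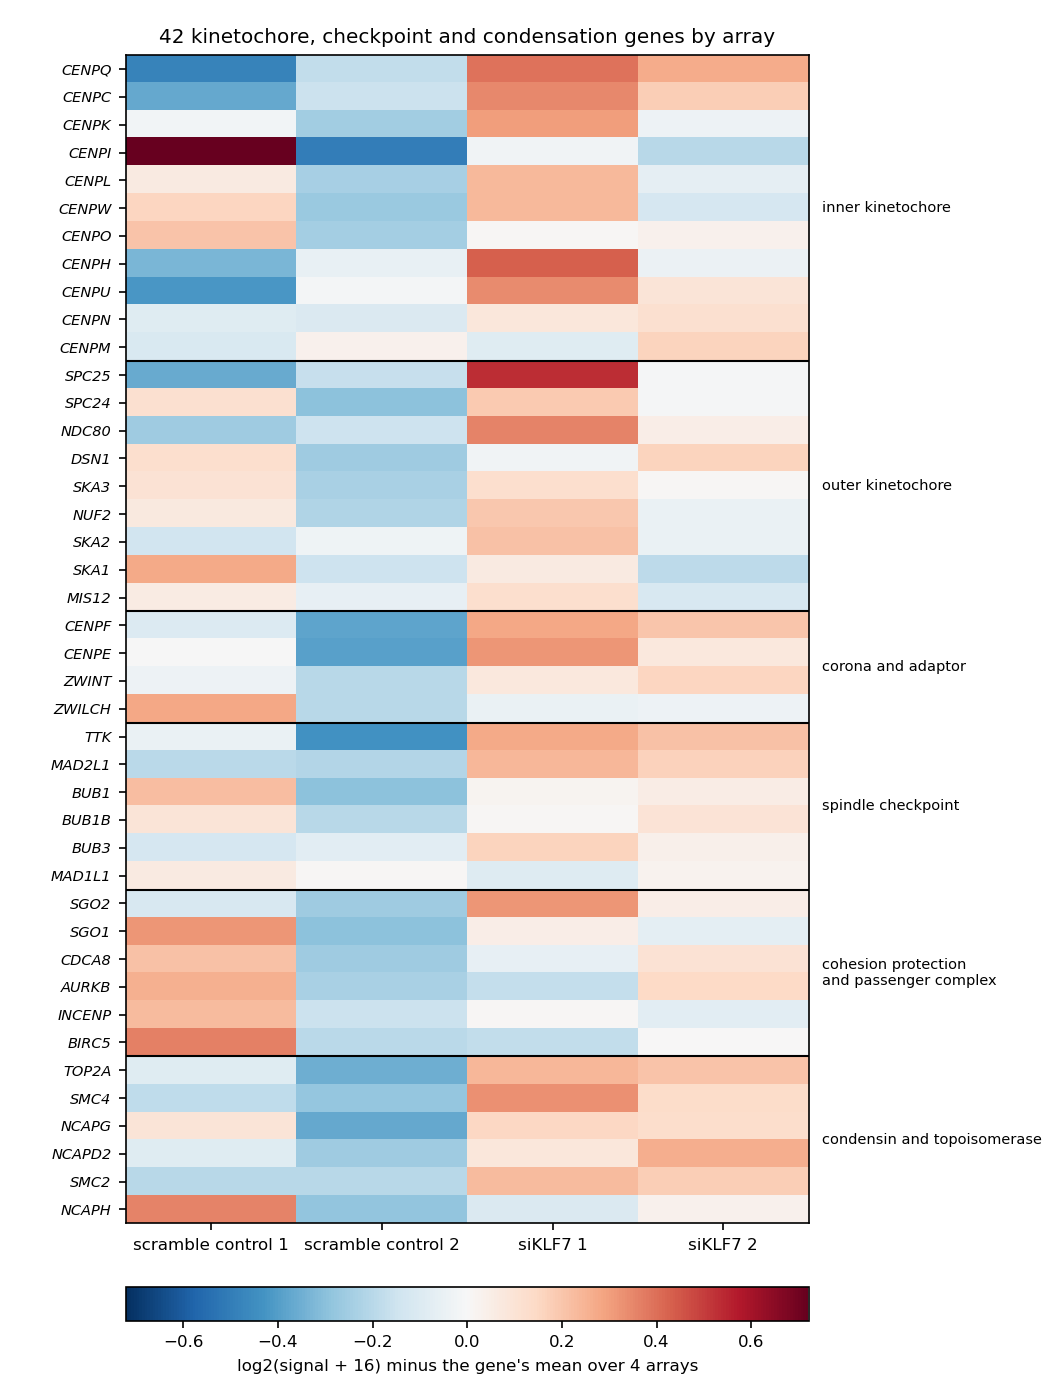
Each row is a member and each column an array; colour gives log2(signal + 16) minus the gene's mean over the 4 arrays, with rows grouped by role and ordered within a role by the difference from control 2. The control 2 column is blue in most rows, with 41 of 42 members below the siKLF7 mean, while control 1 is red for CENPI and for the passenger complex and blue for CENPQ, CENPC and CENPU.

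**Figure D2:**
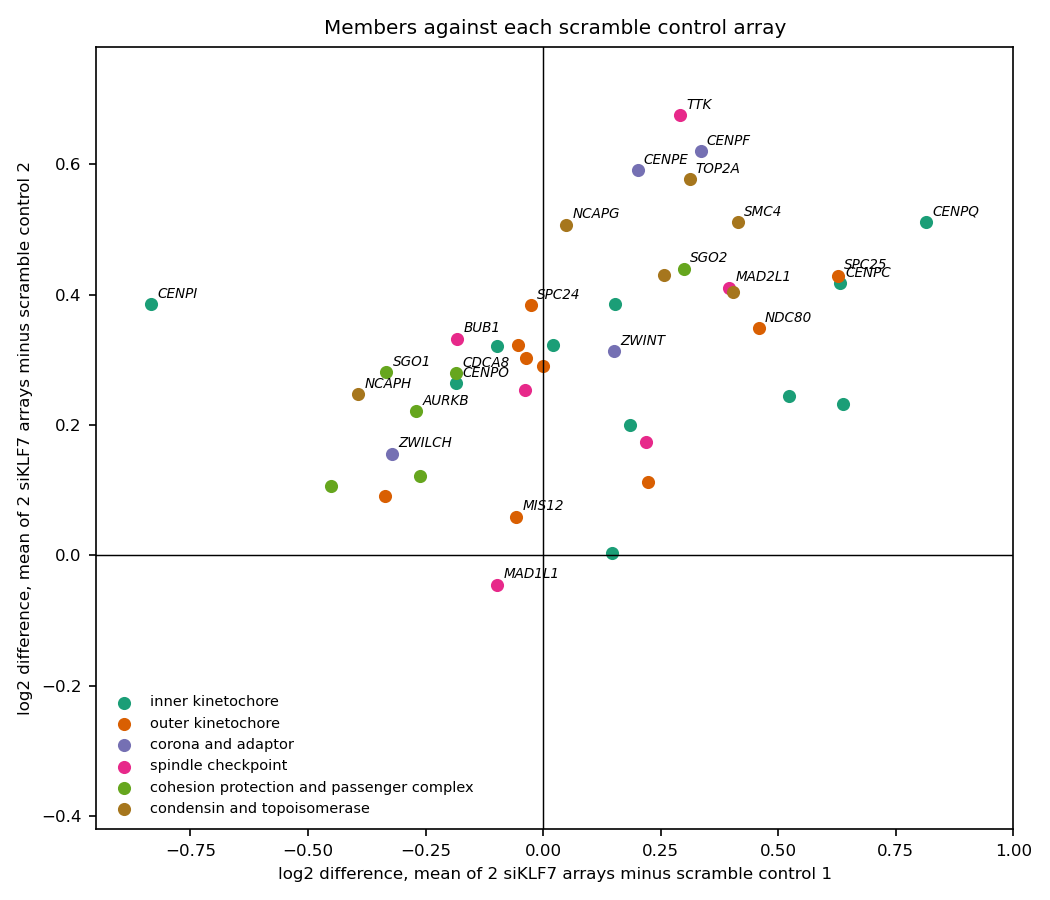
Each point is a member, placed by the mean of the 2 siKLF7 arrays minus control 1 (horizontal, log2) and minus control 2 (vertical, log2), and coloured by role; genes with values for all arrays in the text are mostly labelled. All points but MAD1L1 lie above the horizontal zero line, and 19 lie to the left of the vertical one; the axes share the siKLF7 arrays.

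RefSeq promoter windows (GRCh38.p14), from 250 bases before to 50 bases after the gene's start, were found for 36 of the 42 measured members. The windows of the 4 members with the smallest p against control 2 among these are shown because these genes rose in that comparison. TTK had no window in the table. Capitals mark matches on either strand to TTTGAA (the cell cycle homology region, or CHR, of many G2 and mitosis genes), CCAAT (bound by NF-Y), GGGCGG (the GC box bound by SP and KLF factors) and CCACCC (a form of the CACCC box bound by KLF factors).
TOP2A: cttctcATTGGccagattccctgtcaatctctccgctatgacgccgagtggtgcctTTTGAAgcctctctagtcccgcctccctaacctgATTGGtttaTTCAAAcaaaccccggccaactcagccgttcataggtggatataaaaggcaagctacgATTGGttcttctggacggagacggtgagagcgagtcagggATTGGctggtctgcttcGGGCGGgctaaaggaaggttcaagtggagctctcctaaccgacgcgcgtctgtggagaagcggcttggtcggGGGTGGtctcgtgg
CENPF: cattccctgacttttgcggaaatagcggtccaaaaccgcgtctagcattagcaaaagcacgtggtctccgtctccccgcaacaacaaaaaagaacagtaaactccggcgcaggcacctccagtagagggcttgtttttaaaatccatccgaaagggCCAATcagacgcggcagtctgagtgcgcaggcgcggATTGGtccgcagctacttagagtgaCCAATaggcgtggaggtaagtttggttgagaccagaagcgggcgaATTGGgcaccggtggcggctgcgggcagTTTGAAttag
SMC4: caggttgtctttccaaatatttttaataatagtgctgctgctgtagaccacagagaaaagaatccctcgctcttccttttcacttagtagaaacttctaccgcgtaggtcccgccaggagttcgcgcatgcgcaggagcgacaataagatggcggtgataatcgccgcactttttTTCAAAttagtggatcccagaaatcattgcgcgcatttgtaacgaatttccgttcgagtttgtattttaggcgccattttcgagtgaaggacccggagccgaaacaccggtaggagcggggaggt
CENPE: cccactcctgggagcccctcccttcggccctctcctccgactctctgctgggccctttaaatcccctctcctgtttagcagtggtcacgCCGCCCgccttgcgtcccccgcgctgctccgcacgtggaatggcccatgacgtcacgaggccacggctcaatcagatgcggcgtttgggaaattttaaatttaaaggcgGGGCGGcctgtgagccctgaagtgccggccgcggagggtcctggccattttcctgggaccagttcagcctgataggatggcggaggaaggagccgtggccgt

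The TOP2A window lies at chr17:40417847-40418146 on the minus strand and holds 2 TTTGAA, 4 CCAAT, 1 GGGCGG and 1 CCACCC matches. CENPF, at chr1:214602945-214603244 on the plus strand, holds 1 TTTGAA and 4 CCAAT matches. SMC4, at chr3:160399400-160399699 on the plus strand, holds 1 TTTGAA match, and CENPE, at chr4:103198294-103198593 on the minus strand, 2 GGGCGG matches. TTTGAA was found in 19 of the 36 member windows, or 52.8%, against 15.5% of 27305 genes' windows, which include non-coding genes. CCAAT was found in 63.9% of member windows against 35.7%, GGGCGG in 61.1% against 44.5%, and CCACCC in 38.9% against 33.5%. TTTGAA was in 12 of 16 windows of members with both siKLF7 arrays above both controls. It was in 3 of 9 of those between the controls and in 4 of the other 11. For CCAAT these counts were 11, 7 and 5, for GGGCGG 8, 7 and 7, and for CCACCC 6, 4 and 4. Windows of all genes were not split in this way. In 3 windows, those of CENPC, ZWILCH and CDCA8, matches to different motifs shared a base. These matches describe letters in these windows and are not evidence of binding.

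**Figure D3:**
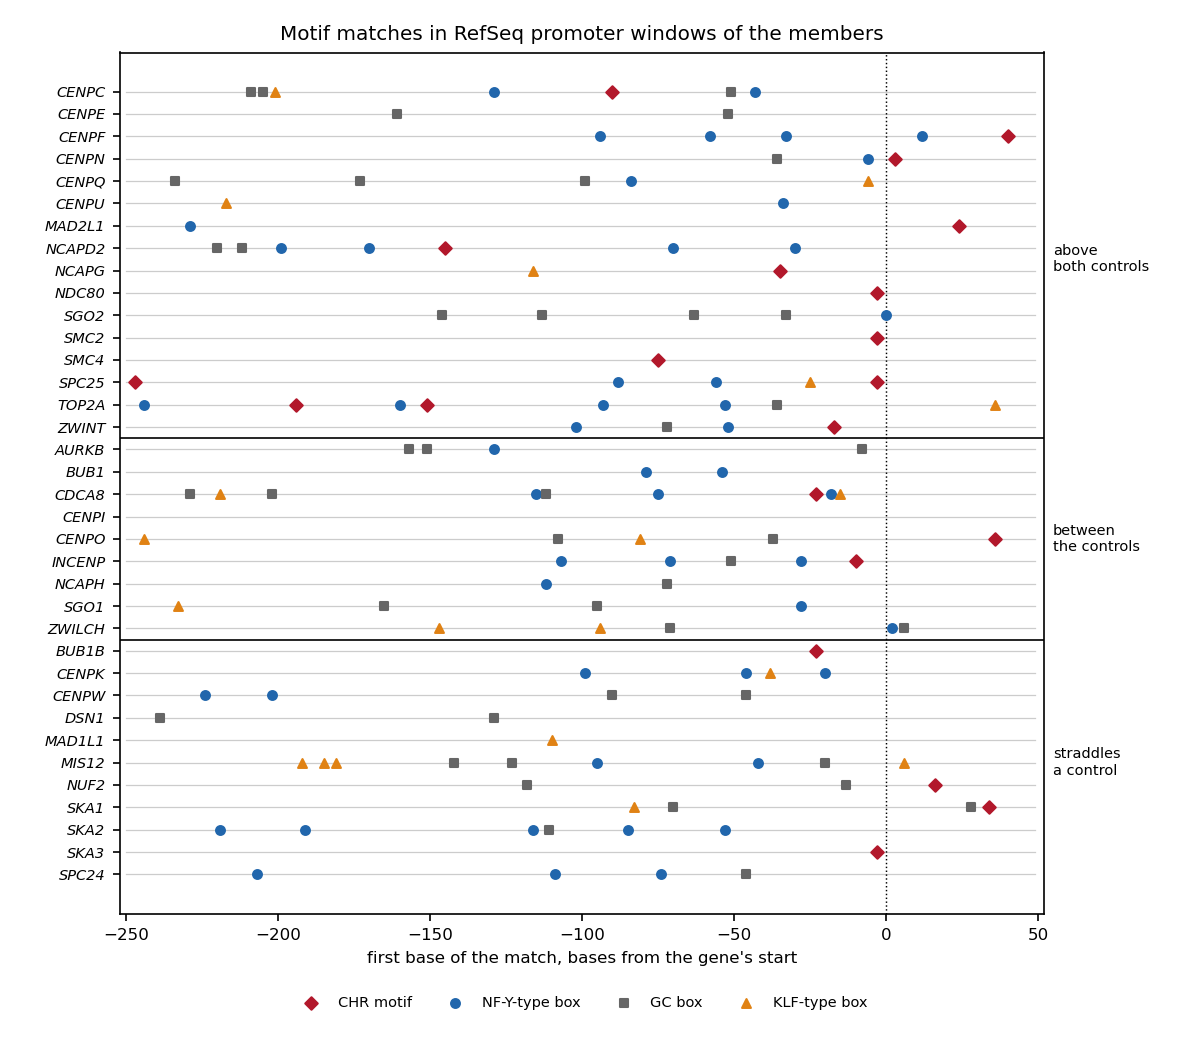
Rows are the 36 members with a RefSeq promoter window, grouped by where both siKLF7 arrays lay relative to the controls; symbols give the first base of each match in bases from the gene's start, for TTTGAA (CHR motif), CCAAT (NF-Y-type box), GGGCGG (GC box) and CCACCC (KLF-type box). Diamonds of the CHR motif occur in 12 of the 16 upper rows, 3 of the 9 middle rows and 4 of the 11 lower rows. Circles of the NF-Y-type box occur in 11, 7 and 5 of these rows, and squares of the GC box in 8, 7 and 7.

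In the inner kinetochore, 5 of the 11 measured members had both siKLF7 arrays above both controls, against 16.3% of all genes, and the group's median was 0.32 against control 2 and 0.15 against control 1. CENPQ, a subunit of the CENP-O subcomplex, stood at log2 levels of 7.33 and 7.63 in controls 1 and 2 and 8.21 and 8.08 in siKLF7 replicates 1 and 2. Both siKLF7 arrays lay above both controls, and its difference of 0.66 with 4 arrays (SE 0.15, limma adjusted p = 0.639) was the largest of the 42. CENPQ stood at 0.51 against control 2 (adjusted p = 0.102) and rose by 0.81 against control 1 (adjusted p = 3.1e-05). CENPC, which bridges the centromeric nucleosome to the outer kinetochore, stood at 7.88 and 8.09 in the controls and 8.60 and 8.43 in the siKLF7 arrays, again without overlap. Its log2 differences were 0.52 with 4 arrays (SE 0.15), 0.42 against control 2 (adjusted p = 0.257) and 0.63 against control 1, where it passed (adjusted p = 0.00163).

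CENPI, which acts with CENPH, CENPK and CENPM in the network, had the widest gap between controls of the 42 members. Its levels were 9.23 and 8.01 in the controls and 8.49 and 8.31 in the siKLF7 arrays, so that the controls were 1.22 apart and held the siKLF7 arrays between them. CENPI fell by 0.83 against control 1 (limma adjusted p = 2.7e-05) and stood 0.39 above control 2 (adjusted p = 0.316). Its partner CENPH, at 7.07 and 7.34 in the controls and 7.82 and 7.35 in the siKLF7 arrays, rose by 0.52 against control 1 (adjusted p = 0.012), while siKLF7 replicate 2 lay at the level of control 2. CENPO, of the same subcomplex as CENPQ, stood at 8.54 and 8.09 in the controls and 8.35 and 8.37 in the siKLF7 arrays, between the controls. CENPU, another subunit of that subcomplex, stood at 7.94 and 8.34 against 8.70 and 8.45, and rose by 0.64 against control 1 (adjusted p = 0.00153). The remaining CENPK, CENPL, CENPM, CENPN and CENPW differed by 0.08 to 0.27 with 4 arrays. Of these, both siKLF7 arrays of CENPN alone lay above both controls.

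In the outer kinetochore, 2 of 9 members had both siKLF7 arrays above both controls, against 16.3% of all genes. The other 7 straddled a control, where 6495 of all 18417 genes did. The group's median was 0.30 against control 2 and -0.03 against control 1, and no member passed against control 2. The 4 subunits of the NDC80 complex, which grips microtubules, differed in pattern. NDC80 stood at 7.97 and 8.08 in controls 1 and 2 and 8.58 and 8.27 in the siKLF7 arrays, and SPC25 at 6.90 and 7.10 against 7.80 and 7.26. Both were higher in both siKLF7 arrays, with siKLF7 replicate 1 the higher by 0.31 for NDC80 and 0.54 for SPC25. NDC80 rose by 0.46 against control 1 (limma adjusted p = 0.0293) and stood at 0.35 against control 2 (adjusted p = 0.403). SPC25 rose by 0.63 against control 1 (adjusted p = 0.00241) and stood at 0.43 against control 2 (adjusted p = 0.262).

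SPC24, which pairs with SPC25, stood at 8.59 and 8.18 in the controls and 8.67 and 8.47 in the siKLF7 arrays, so control 1 lay within the siKLF7 range. NUF2, which pairs with NDC80, differed by 0.29 from control 2 and by less than 0.01 from control 1. MIS12, a scaffold of the outer kinetochore, stood at 8.85 and 8.74 in the controls and 8.91 and 8.68 in the siKLF7 arrays, and its 4-array difference of 0.00 (SE 0.15) was the smallest in size of the group. DSN1, a partner of MIS12, differed by 0.13 with 4 arrays. SKA1, SKA2 and SKA3, which help hold the NDC80 complex on microtubules, differed by -0.12, 0.17 and 0.13. The value for SKA2 came from the brighter of its 2 features, and the other gave 0.36.

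Among the 4 measured fibrous corona and adaptor genes, 3 had both siKLF7 arrays above both controls, against 16.3% of all genes. These were CENPF, CENPE and ZWINT. CENPF, a large coiled-coil protein of the corona, stood at 9.46 and 9.17 in controls 1 and 2 and 9.84 and 9.75 in the siKLF7 arrays. It rose by 0.62 against control 2 (SE 0.15, limma adjusted p = 0.0135), a 1.54-fold difference, and stood at 0.33 against control 1 (adjusted p = 0.0983) and 0.48 with 4 arrays. CENPE, the kinesin that moves chromosomes to the spindle equator, stood at 8.79 and 8.40 in the controls and 9.11 and 8.87 in the siKLF7 arrays. CENPE rose by 0.59 against control 2 (SE 0.16, adjusted p = 0.0386) and stood at 0.20 against control 1 (adjusted p = 0.399). That call was lost when features were averaged (adjusted p = 0.0543) or when the prior had no intensity trend (adjusted p = 0.0787). ZWINT, which links the outer kinetochore to the RZZ complex, stood at 8.40 and 8.24 in the controls and 8.51 and 8.59 in the siKLF7 arrays, above both controls, and did not pass. ZWILCH, a subunit of RZZ, stood at 9.71 and 9.23 against 9.38 and 9.39, between the controls.

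In the spindle checkpoint, 3 of the 6 members had both siKLF7 arrays above both controls, against 16.3% of all genes. These were TTK, MAD2L1 and BUB3. For BUB1 the siKLF7 arrays lay between the controls, and MAD1L1 and BUB1B straddled a control. TTK, the kinase also known as MPS1 that starts checkpoint signalling, stood at 8.47 and 8.08 in controls 1 and 2 and 8.79 and 8.73 in the siKLF7 arrays. TTK rose by 0.68 against control 2 (SE 0.16, limma adjusted p = 0.00936), a 1.60-fold difference and the largest of the 42 in that comparison. It stood at 0.29 against control 1 (adjusted p = 0.191) and at 0.48 with 4 arrays (SE 0.18, adjusted p = 0.639). MAD2L1, the inhibitor that holds back the anaphase-promoting complex, stood at 8.75 and 8.74 in the controls and 9.19 and 9.11 in the siKLF7 arrays. Its controls were only 0.02 apart, and its differences were 0.40 with 4 arrays, 0.41 against control 2 (adjusted p = 0.258) and 0.40 against control 1 (adjusted p = 0.0596). MAD1L1, which carries MAD2L1 to the kinetochore, stood at 8.36 and 8.30 in the controls and 8.20 and 8.32 in the siKLF7 arrays, and was the sole member below control 2, at -0.04.

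BUB1, a kinase that recruits checkpoint proteins and marks the centromere, stood at 9.70 and 9.18 in the controls and 9.50 and 9.53 in the siKLF7 arrays. The siKLF7 arrays of BUB1 were 0.33 above control 2 and 0.18 below control 1 on average, and neither difference passed. BUB3, its binding partner, stood at 10.21 and 10.25 against 10.49 and 10.37, above both controls with a 4-array difference of 0.20. BUB1B, a component of the mitotic checkpoint complex, differed by 0.11 with 4 arrays.

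The chromosomal passenger complex corrects faulty attachments through its kinase AURKB. All 4 of its measured subunits lay between the controls in both siKLF7 arrays, where 19.6% of all genes did. AURKB stood at 9.47 and 8.98 in controls 1 and 2 and 9.04 and 9.36 in the siKLF7 arrays. CDCA8, known as borealin, stood at 9.33 and 8.86 in the controls and 9.06 and 9.22 in the siKLF7 arrays. INCENP, the scaffold, stood at 10.14 and 9.76 against 9.92 and 9.84. BIRC5, known as survivin, stood at 8.79 and 8.23 against 8.25 and 8.43, and fell by 0.45 against control 1 (limma adjusted p = 0.0309). The 4-array differences of the complex ran from -0.17 to 0.05, and control 1 exceeded control 2 by a median of 0.48. A dimmer feature of BIRC5 gave -0.29 with 4 arrays and -0.32 against control 2, where the brighter feature gave 0.11. By the dimmer feature, the siKLF7 arrays, at 5.86 and 5.75, lay below both controls, at 6.06 and 6.12, and not between them.

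The shugoshins, which protect centromeric cohesion, divided in the same way as the 2 patterns above. SGO1 stood at 9.23 and 8.62 in controls 1 and 2 and 8.96 and 8.84 in the siKLF7 arrays, between the controls. SGO2 stood at 8.33 and 8.19 in the controls and 8.77 and 8.50 in the siKLF7 arrays, above both. SGO2 differed by 0.44 from control 2 (limma adjusted p = 0.221) and by 0.30 from control 1 (adjusted p = 0.184), and did not pass.

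Genes of chromosome condensation had the highest median of the role groups, 0.47 against control 2, 0.28 against control 1 and 0.37 with 4 arrays. In 5 of the 6, both siKLF7 arrays lay above both controls, against 16.3% of all genes. TOP2A, the topoisomerase that untangles sister chromatids, stood at 10.17 and 9.91 in controls 1 and 2 and 10.50 and 10.47 in the siKLF7 arrays. It rose by 0.58 against control 2 (SE 0.14, limma adjusted p = 0.0102), 1.49-fold, and stood at 0.31 against control 1 (adjusted p = 0.0836). SMC4, an ATPase subunit of condensin, stood at 10.24 and 10.14 in the controls and 10.75 and 10.56 in the siKLF7 arrays. SMC4 rose against each control alone, by 0.51 against control 2 (SE 0.14, adjusted p = 0.0284) and by 0.41 against control 1 (SE 0.13, adjusted p = 0.0144), and was the sole member to do so without further normalization. CENPQ and SMC4 passed against each control under median centring, and CENPQ, SMC4 and TOP2A under quantile normalization. With 4 arrays its difference of 0.46 (SE 0.14, adjusted p = 0.639) did not pass. Without an intensity trend in the prior, the calls of TOP2A and SMC4 against control 2 were lost (adjusted p = 0.0709 and 0.154), as was that of SMC4 against control 1 (adjusted p = 0.0519).

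SMC2, which pairs with SMC4, stood at 8.85 in both controls and at 9.28 and 9.23 in the siKLF7 arrays. Its difference was 0.40 against either control. It passed against neither without further normalization, but passed against control 1 under median centring. NCAPG, a HEAT-repeat subunit of condensin I, stood at 9.18 and 8.72 in the controls and 9.23 and 9.21 in the siKLF7 arrays, just above control 1, and NCAPD2 at 10.34 and 10.17 against 10.51 and 10.69. NCAPH, the kleisin that closes the condensin I ring, was the exception. It stood at 9.95 and 9.31 in the controls and 9.49 and 9.63 in the siKLF7 arrays, and fell by 0.39 against control 1 (adjusted p = 0.0462), a call that was lost without the intensity trend (adjusted p = 0.0601). The subunits of condensin I thus differed in order between arrays, with 4 of 5 above both controls and 1 between them.

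**Figure D4:**
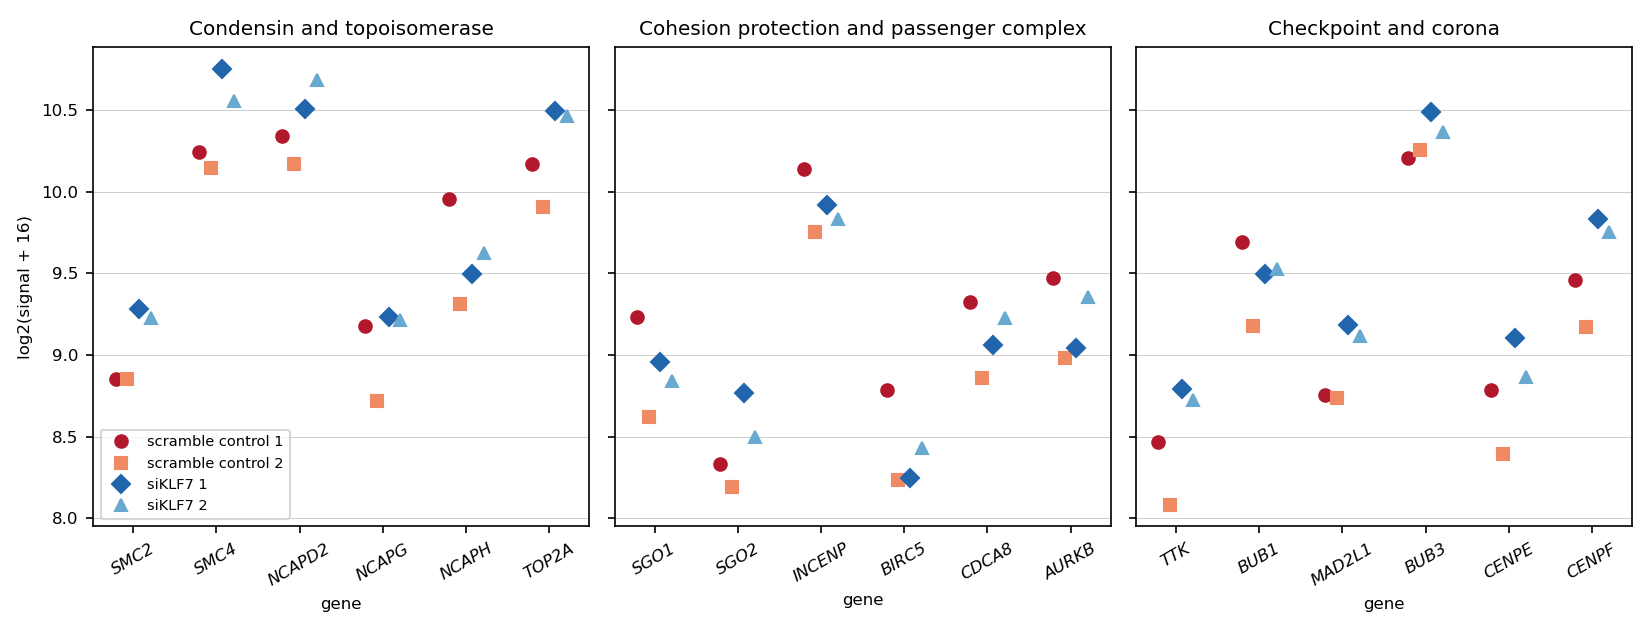
Points give log2(signal + 16) of each gene in the 4 arrays. Panels show the condensation genes (left), the cohesion protection and passenger genes (middle) and 6 checkpoint and corona genes (right). The 6 were picked for display. Of MAD1L1, BUB1B, ZWINT and ZWILCH, which are not shown, ZWINT alone had both siKLF7 arrays above both controls. Levels can be compared within a gene, not between genes. Both blue siKLF7 symbols lie above both red control symbols for 5 of 6 condensation genes and for SGO2, while for SGO1, NCAPH, BUB1 and the 4 passenger genes they lie between the controls.

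Other genes of the pathway were counted from a list. Of 22 measured genes among 25 further kinetochore, checkpoint and condensin genes, 7 had both siKLF7 arrays above both controls and 0 below, against 16.3% and 28.9% of all genes. Their median difference was 0.16 against control 2, 0.0026 against control 1 and 0.07 with 4 arrays. Against control 1, 4 rose and 1 fell, where 13.4% of all genes passed in each direction. Against control 2, 0 passed by limma, with 3 higher at an unadjusted p under 0.05. These were KNL1, the outer kinetochore scaffold for BUB proteins, at 0.51 (adjusted p = 0.0855), MKI67, the chromosome surface protein, at 0.44, and KNTC1, a subunit of RZZ, at 0.34. KNL1 stood at 9.56 and 9.08 in controls 1 and 2 and 9.63 and 9.55 in the siKLF7 arrays, close to control 1. Against control 1 the differences of KNL1, MKI67 and KNTC1 were 0.03, -0.26 and -0.03, and none passed. Of 15 cohesin genes, 6 had both siKLF7 arrays above both controls, 5 between and 0 below, against 16.3%, 19.6% and 28.9% of all genes. Their median difference was 0.13 against control 2, 0.09 against control 1 and 0.07 with 4 arrays. Against control 1 they ran from -0.57 for SMC1A to 0.76 for PTTG1. PTTG1, the highest of the list against either control, is securin. It holds separase inactive until anaphase and is not a cohesin subunit. PTTG1 stood at 8.99 and 9.17 in the controls and 9.71 and 9.80 in the siKLF7 arrays, and rose by 0.58 against control 2 (limma adjusted p = 0.0272) and by 0.76 against control 1 (adjusted p = 6.1e-05), with 0.67 for 4 arrays (adjusted p = 0.639).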

How the data were processed

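Total RNA was measured on 4 whole-transcript arrays. The authors deposited array intensity values on a linear scale, and the submitters' processing notes name PLIER 2.0 and Affymetrix Expression Console 1.1.1. Whether arrays were scaled to each other, and the genome build, are not given in the sources used here. Medians over genes were 283 to 296, and the number of arrays limits the precision.

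Platform annotation gave 1 symbol for 19460 of 33297 features, and the brightest feature was kept for the 769 genes with several. Values were analysed as log2(signal + 16), so differences of dim genes are understated. The siKLF7 arrays were compared with both controls, and with each control alone, by limma 3.58.1 (lmFit, eBayes with an intensity trend) in R 4.3.3. P-values of each limma fit were adjusted by Benjamini-Hochberg across all 18417 genes, with a threshold of 0.05. A fit against a lone control has 1 residual degree of freedom, from the siKLF7 pair, and assumes that the control varies alike. The variance prior carried 69.9 degrees of freedom for control 2 and 80.4 for control 1. The siKLF7 arrays were 2-fold or more apart for 14 genes, against 943 for control 1 and the mean of the other arrays. P-values against a lone control therefore leave out the spread between controls. The fits were tested on simulated data. The simulated noise had the same variance in control and siKLF7 arrays, so that test does not cover a control that stands apart.

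Values in all 4 arrays are given for members that passed against control 2 or with 4 arrays, and in each role group for the 3 with the smallest p against control 2 and the one with the smallest 4-array difference. CENPH, CENPU, BUB3, INCENP, BIRC5, SMC2 and NCAPD2 are named outside this rule, after their values were seen. Members and lists were chosen with earlier results of these data known. Same-numbered arrays of the groups deviated with r = -0.04 across genes, so the numbers were not treated as pairs.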

Additional observations from a re-analysis of the deposited data

How the results depend on the processing

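With 4 arrays, 0 genes and 0 members were called under quantile normalization, median centring, both dim filters, both pseudocounts, averaged features, both priors and the looser threshold. With the replicate number as a block the count was also 0, and the member median was 0.18. Leaving out 1 array at a time gave 0 to 4928 genes, 0 to 10 members and member medians of 0.10 to 0.32, the highest median and 5 members without control 1, and 4928 genes and 10 members without control 2.

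Some 4-array differences changed sign. Outside the naming rule, leaving out control 1 moved BIRC5 from -0.17 to 0.11, INCENP from -0.07 to 0.12 and SKA1 from -0.12 to 0.09. Leaving out control 2 moved BUB1B to -0.04, CENPW to -0.10, DSN1 to -0.05, SKA3 to -0.04 and NUF2 to -0.0008, all from positive values. Members within the rule follow. MIS12 stood at -0.017 under quantile normalization. With 1 array left out, the range was -0.27 to 0.22 for AURKB, -0.83 to 0.39 for CENPI, -0.39 to 0.25 for NCAPH, -0.33 to 0.28 for SGO1, -0.32 to 0.16 for ZWILCH, -0.18 to 0.33 for BUB1, -0.18 to 0.28 for CDCA8, -0.18 to 0.26 for CENPO, -0.12 to 0.12 for MIS12 and -0.026 to 0.38 for SPC24.

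Against control 2, 8 members were called under quantile normalization and 8 under median centring, and 2 with a prior that has no trend; over all genes 276, 277 and 98 rose there, against 164, and the cause was not tested. Against control 1, the member median was -0.026 without the dimmest 50% of genes, where fewer members are left. Without a siKLF7 replicate there is no test against 1 control, and the member median against control 2 was 0.28 to 0.36.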
